A study of Mus musculus with 8 samples.

Results

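The data described here are the transcript counts of 5 chemokine receptor genes of effector T cells, Cxcr3, Cxcr4, Cxcr6, Ccr2 and Ccr4, in mouse splenic T cells that lacked or retained SDHA. The 5 genes were chosen by name and are 5 of the 20170 genes of the table, which held 12846 cells from 8 libraries. SDHA is the flavoprotein subunit of succinate dehydrogenase, which is complex II of the mitochondrial electron transport chain. SDHA-KO cells came from mice whose floxed Sdha alleles were deleted by Cre under the Cd4 promoter (Sdha fl/fl CD4-Cre), on a C57BL/6 background, at 8 to 12 weeks of age. WT cells came from C57BL/6 mice. T cells were purified from spleen with magnetic beads and either left unstimulated or cultured for 48 h with anti-CD3 antibody at 5 μg/mL and anti-CD28 antibody at 2.5 μg/mL. Genotype and state made 4 groups with 2 libraries each. The sources do not say which mouse each library came from, so the p-values measure only the spread between libraries, which may be technical. CD4-Cre deletes floxed DNA in cells that express Cd4 at some time, as most αβ T cells do in the thymus, and T cells of other origin in the same spleen can keep their alleles.

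Chemokine receptors are G protein-coupled receptors that steer leukocytes along gradients of chemokines. CXCR3 binds CXCL9, CXCL10 and CXCL11 and takes type 1 effector T cells into inflamed tissue, CCR2 binds CCL2 and related chemokines and is shared with monocytes, and CXCR6 binds CXCL16 and is carried by effector and tissue-resident T cells. CXCR4 binds CXCL12 and is the homing receptor of bone marrow and lymphoid tissue, and CCR4 binds CCL17 and CCL22 and is known from Th2 cells, regulatory T cells and T cells that home to skin. Naive T cells are known to carry CXCR4.

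The promoters of the 3 receptors whose transcripts differed most between the genotypes after stimulation are shown, because 2 of them, Cxcr6 and Ccr2, start 295.7 kb apart on chromosome 9. Each is the 250 bases before the RefSeq transcription start in GRCm38.p6, written 5′ to 3′ on the strand of the gene, and all 5 genes matched an entry. Capitals mark GGAAA, the core of an NFAT site, read on either strand. They also mark GCGTG, one form of the hypoxia response element. The last motif in capitals is AGATAA, which factors such as Gata3 bind.
Cxcr4, chr1:128592300-128592549, minus strand: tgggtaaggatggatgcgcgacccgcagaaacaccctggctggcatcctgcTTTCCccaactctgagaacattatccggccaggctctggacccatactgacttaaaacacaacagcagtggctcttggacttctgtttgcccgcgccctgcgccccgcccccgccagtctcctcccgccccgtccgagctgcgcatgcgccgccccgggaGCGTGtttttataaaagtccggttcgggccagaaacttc
Cxcr6, chr9:123806227-123806476, plus strand: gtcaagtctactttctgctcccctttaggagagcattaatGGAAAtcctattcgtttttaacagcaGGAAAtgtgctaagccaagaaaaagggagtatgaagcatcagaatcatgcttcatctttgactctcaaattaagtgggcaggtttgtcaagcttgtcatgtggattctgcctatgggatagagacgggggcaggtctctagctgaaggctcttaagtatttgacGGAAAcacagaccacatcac
Ccr2, chr9:124101933-124102182, plus strand: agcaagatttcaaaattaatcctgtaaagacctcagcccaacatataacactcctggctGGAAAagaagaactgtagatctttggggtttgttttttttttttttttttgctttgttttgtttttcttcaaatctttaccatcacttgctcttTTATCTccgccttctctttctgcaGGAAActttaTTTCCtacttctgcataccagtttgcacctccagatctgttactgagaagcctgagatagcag
Both strands were searched. GGAAA was found 3 times in the Cxcr6 window, 3 times in the Ccr2 window, and once each for Cxcr4 and Ccr4, and 55.6% of 32841 mouse promoter windows of this length held it. GCGTG was found once for Cxcr4 and once for Cxcr3 (28.2% of windows), and AGATAA once for Ccr2 (9.99%). The letters ACGTG (16.6% of windows) and TCACACC, a T-box site (3.33%), were in none of the 5 windows. Ccr4 also lies on chromosome 9, Cxcr4 on chromosome 1 and Cxcr3 on chromosome X. Other chemokine receptor genes start nearer to Cxcr6 than Ccr2 does: Ccr9 at 39.3 kb, Xcr1 at 55.6 kb, Ccr1 at 162.2 kb and Ccr3 at 215.5 kb.

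The libraries held 10947009 to 51398728 UMIs. All 6 T cell markers were detected in every library, at a summed 2291 to 4928 CPM, against 39.9 to 189.9 for 8 B cell markers and 30.8 to 111.9 for 7 monocyte and macrophage markers. The sum of 7 NK cell markers moved with the genotype after stimulation, from 5.89 and 4.16 CPM in WT to 26.7 and 17.9 CPM in SDHA-KO CD4+ cells and from 20.1 and 23.6 to 58.5 and 64.8 CPM in CD8+ cells, with Klra8 at 0 in every library and 4 of 7 markers detected in WT against 6 of 7 in SDHA-KO CD4+ cells. Eomes, 1 of the 7, was alone at a mean of 15.6 CPM in WT and 32.6 CPM in SDHA-KO stimulated CD8+ cells, with edgeR's TMM factors. The part of these NK cell markers in the receptor changes of stimulated cells was not tested. The median cell had 7572 to 9090 UMIs in unstimulated libraries, 13745 and 13809 in stimulated WT, and 25116.5 and 25465.5 in stimulated SDHA-KO. Mitochondrial transcripts took a median of 17.9% and 16.2% of a cell's UMIs in the 2 stimulated WT libraries, 2.29% and 2.20% in stimulated SDHA-KO and 3.48% to 4.07% in unstimulated libraries. Sdha itself, given as CPM (the UMIs of a gene relative to all UMIs of the summed cells, scaled with edgeR's TMM factors), fell in CD4+ cells from 100.5 and 100.0 in unstimulated WT to 49.8 and 49.3 in unstimulated SDHA-KO, and from 73.9 and 73.0 to 26.5 and 26.4 after stimulation. In CD8+ cells it was 91.3 and 95.6 against 38.9 and 37.6 before stimulation and 76.1 and 74.8 against 53.2 and 50.4 after it, so every SDHA-KO library lay below every WT library of its state. The share of CD8+ cells with a UMI of Trdc, the constant gene of the γδ T cell receptor, was 59.1% and 56.1% in stimulated SDHA-KO against 3.67% and 4.92% in stimulated WT, and 19.7% and 15.2% against 3.90% and 3.41% without stimulation. In CD4+ cells it was 10.1% and 8.64% against 1.98% and 3.21% after stimulation, and 7.08% and 7.60% against 3.64% and 2.84% before it. In stimulated SDHA-KO CD8+ cells Sdha was at 74.0 and 70.9 CPM in cells with a Trdc UMI and at 36.9 and 33.6 CPM in cells without one. Of 10 γδ T cell markers 8 were in the table, and their summed level in CD8+ cells was 26.3 to 29.0 CPM in unstimulated WT, 177 and 234 in unstimulated SDHA-KO, 18.2 and 21.2 in stimulated WT, and 255 and 261 in stimulated SDHA-KO. In CD4+ cells the same sum was 10.7 and 14.3, 32.3 and 42.1, 5.74 and 6.22, and 16.4 and 21.6 CPM. Because these cells moved with the genotype, each receptor is also given for the class without cells that held a Trdc UMI and, where the value differs, for those of its cells that also carried only the matching coreceptor transcripts.

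The question asked first was whether SDHA loss changed the 5 receptors within the authors' CD4+ and CD8+ classes, with UMIs summed per library and tested with edgeR's quasi-likelihood test over all genes (Benjamini-Hochberg adjusted p under 0.05). In such sums, fewer cells that carry a transcript and fewer copies in each cell cannot be told apart. In unstimulated CD4+ cells 2 of 5 receptors changed, Cxcr6 and Ccr2, both higher in SDHA-KO, where 1.1% of all tested genes changed. In unstimulated CD8+ cells 0 of 5 changed, where 0.947% of genes did, 1 of 5 (Cxcr6) had an unadjusted p under 0.05, and DESeq2 also called 0 of 5. After stimulation 4 of 5 changed in CD4+ cells (Cxcr4 lower, and Cxcr3, Cxcr6 and Ccr2 higher) and 3 of 5 in CD8+ cells (Cxcr4 lower, and Cxcr6 and Ccr2 higher). Since 43.2% and 50.4% of all genes changed in those comparisons, the CD8+ count lay near the share of genes at large and the CD4+ count above it. Counts out of 5 were not tested against these shares. Stimulation itself changed 4 of 5 receptors in WT CD4+ cells and 5 of 5 in WT CD8+ cells, against 66.3% and 65.7% of genes, and 5 of 5 in SDHA-KO CD4+ and 4 of 5 in SDHA-KO CD8+ cells, against 69.8% and 68.2%. The effect of SDHA loss differed between the states for 2 of 5 receptors in CD4+ cells (Cxcr3 and Cxcr4), where 21.4% of genes differed, and for 3 of 5 in CD8+ cells (Cxcr4, Cxcr6 and Ccr2), where 23.7% did. In all T cells summed together 1 of 5 changed before stimulation (Ccr2, with 1.75% of genes), 3 of 5 after it (with 47.1%) and 3 of 5 in the difference between the states (with 27%). Without composition scaling, fold changes with stimulation were higher by 0.22 on the log2 scale in CD4+ cells of both genotypes, by 0.48 in WT CD8+ cells and by 0.29 in SDHA-KO CD8+ cells, and those between genotypes moved by at most 0.13.

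**Figure D1:**
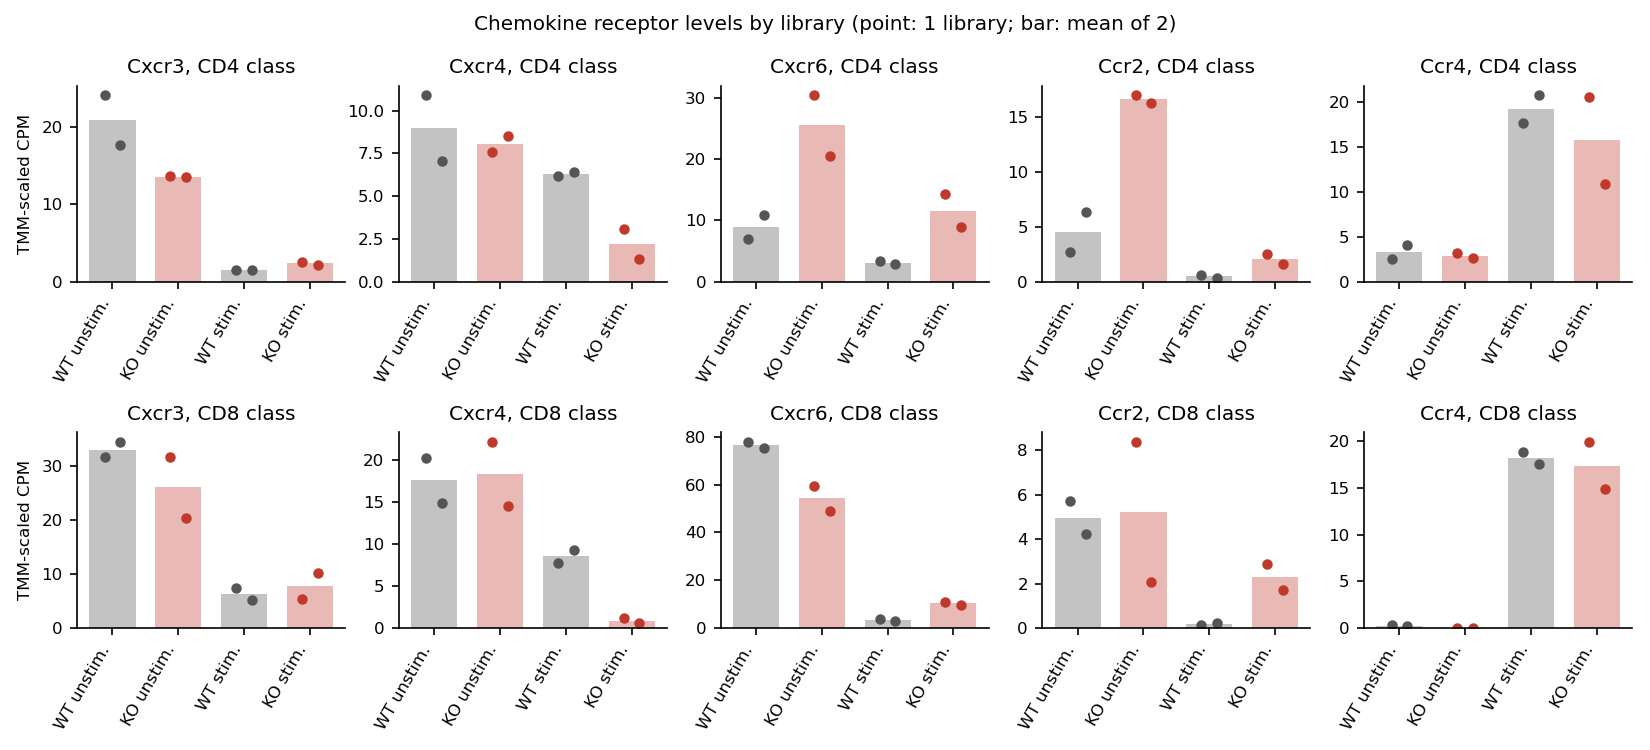
TMM-scaled CPM of each receptor (y axis) by group (x axis), CD4+ cells in the upper and CD8+ cells in the lower panels. Each point is 1 library and each bar the mean of 2: in stimulated CD8+ cells Cxcr4 was at 7.73 and 9.33 in WT and at 1.17 and 0.56 in SDHA-KO, and Ccr4 rose with stimulation in both genotypes.

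Cxcr4, the CXCL12 receptor, was the only one of the 5 receptors called lower with SDHA loss in stimulated CD4+ and CD8+ cells. Stimulated CD8+ cells held 7.73 and 9.33 CPM in WT against 1.17 and 0.56 CPM in SDHA-KO, a change of -3.23 on the log2 scale (SE 0.30, edgeR adjusted p = 9.88e-06). Stimulated CD4+ cells held 6.21 and 6.42 CPM in WT against 3.09 and 1.32 CPM in SDHA-KO (-1.54, SE 0.31, edgeR adjusted p = 0.00206). The groups did not overlap in either class, and the fall was called in all 20 alternative count-based settings for CD8+ cells and all 21 for CD4+ cells, and with limma in both. Its size rested partly on stimulated SDHA-KO library 1: without it the log2 fold changes were -3.92 and -2.23. Leaving out the cells with a Trdc UMI gave -3.17 for CD8+ and -1.60 for CD4+ cells. Among those with only the matching coreceptor transcripts it was -3.85 in CD8+ cells, where 4 and 3 Cxcr4 UMIs were left in SDHA-KO, and -1.40 in CD4+ cells, and in cells under 10% mitochondrial UMIs -2.86 and -1.37. Plain Cxcr4 CPM (without TMM factors) in stimulated SDHA-KO CD8+ cells were 1.28 and 0.57 with a Trdc UMI and 1.40 and 0.68 without one. These values rest on 4 to 15 UMIs each. In WT they were 12.6 and 8.83 with Trdc and 8.96 and 10.9 without it. Sdha in the cells with Trdc was at 80.0 and 88.3 plain CPM in WT against 74.0 and 70.9 in SDHA-KO. Its part in the Cxcr4 level of these cells was not tested.

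Before stimulation a Cxcr4 difference between the genotypes was not detected in either class. In CD8+ cells it was at 20.3 and 14.9 CPM in WT against 22.2 and 14.5 CPM in SDHA-KO, and in CD4+ cells at 10.9 and 7.04 CPM in WT against 7.60 and 8.49 CPM in SDHA-KO, so the groups overlapped in both classes. In unstimulated CD4+ effector memory cells alone Cxcr4 was at 20.5 and 15.2 CPM in WT against 6.81 and 4.78 CPM in SDHA-KO, without overlap, and the change of -1.64 missed the threshold (edgeR adjusted p = 0.0523, and 0.0488 with a replicate block). The difference between the states was itself significant in CD8+ cells (-3.30, SE 0.42, edgeR adjusted p = 0.000497) and came close to the threshold in CD4+ cells (-1.39, SE 0.45, edgeR adjusted p = 0.0499). The CD4+ call was lost without any 1 library other than stimulated SDHA-KO library 1, without which it was -2.06, and in cells without Trdc (-1.37, adjusted p = 0.0622). Stimulation lowered Cxcr4 in SDHA-KO cells by 4.33 on the log2 scale in CD8+ (SE 0.34, edgeR adjusted p = 4.35e-07) and by 1.89 in CD4+ cells (SE 0.33, edgeR adjusted p = 0.000327). In WT cells the fall was 1.03 in CD8+ cells (SE 0.25, edgeR adjusted p = 0.00349), which was lost without unstimulated WT library 1 (adjusted p = 0.0706) and without composition scaling (-0.55, adjusted p = 0.0691). In WT CD4+ cells the change of -0.50 (SE 0.32) did not pass the edgeR threshold (adjusted p = 0.186), but it did without stimulated SDHA-KO library 1 or 2 (adjusted p = 0.0383 and 0.0347). Without stimulated SDHA-KO library 1 the changes with stimulation in SDHA-KO were -5.02 in CD8+ and -2.59 in CD4+ cells.

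The fall of Cxcr4 was present in each kind of stimulated cell large enough to sum, after the authors' numbered subsets of 1 kind had been joined. In stimulated CD8+ central memory (Tcm) cells Cxcr4 was at 14.1 and 16.2 CPM in WT against 2.72 and 1.82 CPM in SDHA-KO (-2.69, edgeR adjusted p = 0.00109). In CD8+ effector memory (Tem) cells it was at 4.08 and 7.13 CPM in WT against 0.92 and 0.35 CPM in SDHA-KO (-3.13, edgeR adjusted p = 0.00458). In CD4+ Tcm cells the change was -1.14 (edgeR adjusted p = 0.0249) and in CD4+ Tem cells -1.32 (edgeR adjusted p = 0.0388). Of these, the CD4+ calls were lost when single libraries were left out, in Tcm cells without either stimulated WT library (adjusted p = 0.0909 and 0.136) or SDHA-KO library 2 (adjusted p = 0.0955) and in Tem cells without either WT library (adjusted p = 0.0691 and 0.0804) or SDHA-KO library 2 (adjusted p = 0.054). Without stimulated SDHA-KO library 1 the changes were -3.98 in CD8+ Tem and -2.08 in CD4+ Tem cells. Sdha in stimulated CD8+ Tcm cells was at 87.6 and 84.7 CPM in WT against 83.6 and 78.4 CPM in SDHA-KO. In CD8+ Tem cells it was at 89.7 and 88.7 against 54.1 and 53.0 CPM. Trdc was found in 69.3% and 66.5% of SDHA-KO CD8+ Tcm cells, against 2.93% and 4.38% in WT. In CD8+ Tem cells it was found in 51.0% and 48.7% against 6.12% and 6.22%. The part of either in the Cxcr4 level was not tested. Among the numbered subsets Cxcr4 was lower in SDHA-KO in CD4+ Tcm4 (0 and 1 UMIs against 19 and 23 in WT, with 15.1% of genes called) and Tem1 (-1.29, with 27.8%) and in CD8+ Tcm4 (-2.44, with 5.62%) and Tem2 (-2.57, with 32.6%). Each of these 4 calls was lost when single libraries were left out. The CD4+ Tcm4 call was lost without either SDHA-KO library (adjusted p = 0.0904 and 0.0501), and the Tem1 call without WT library 2 (adjusted p = 0.102) or SDHA-KO library 2 (adjusted p = 0.0958). The CD8+ Tcm4 call was lost without either WT library (adjusted p = 0.482 and 0.196) and without Trdc cells (-1.85, adjusted p = 0.377). The CD8+ Tem2 call was lost without WT library 1 (adjusted p = 0.0646) or SDHA-KO library 2 (-1.97, adjusted p = 0.0839) and with a replicate block (adjusted p = 0.0586). The background share of genes called was 25.1% in CD4+ Tcm, 31.7% in CD4+ Tem, 27.9% in CD8+ Tcm and 33.3% in CD8+ Tem cells. Cxcr4 was found in each kind of resting cell: in unstimulated WT it ranged from 7.31 ± 2.21 CPM (SD, n = 2) in CD4+ naive to 26.7 ± 12.7 CPM in CD8+ Tcm cells, with CD4+ Tem (17.9 ± 3.75), CD8+ naive (16.7 ± 2.01) and Treg cells (14.8 ± 5.19) between and not apart beyond their spread.

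**Figure D2:**
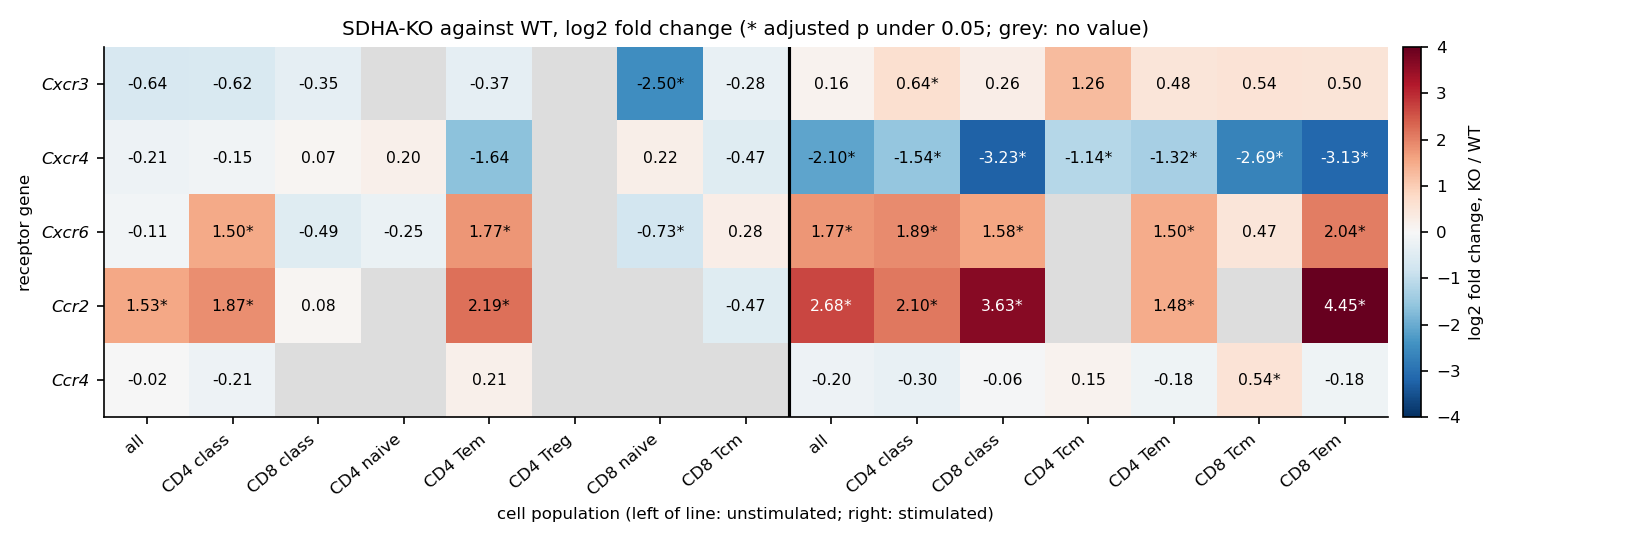
Log2 fold change of SDHA-KO against WT for each receptor (rows) in each class and kind of cell (columns), unstimulated left and stimulated right of the line. An asterisk marks an adjusted p under 0.05 and grey a receptor with no value shown, because it had too few UMIs to test. The exception is Ccr4 in the unstimulated CD8+ class, which was tested and not called. Its value is not shown because it rests on 2 UMIs in WT and none in SDHA-KO. Cxcr4 was negative in all stimulated columns, and Cxcr6 reached 2.04 in stimulated CD8+ Tem cells.

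Cxcr6, the CXCL16 receptor, was higher in SDHA-KO cells after stimulation in both classes. In CD8+ cells it was at 3.97 and 2.96 CPM in WT against 10.99 and 9.65 CPM in SDHA-KO (log2 change 1.58, SE 0.16, edgeR adjusted p = 1.47e-05). In CD4+ cells it was at 3.4 and 2.82 CPM in WT against 14.3 and 8.89 CPM in SDHA-KO (1.89, SE 0.27, edgeR adjusted p = 0.000238). Every SDHA-KO library lay above every WT library, and both calls held in all alternatives run. In cells without a Trdc UMI the rise was 2.27 in CD8+ and 1.65 in CD4+ cells, and with only the matching coreceptor transcripts as well 2.47 and 2.78. In stimulated SDHA-KO CD8+ cells the level was 6.56 and 6.77 CPM with a Trdc UMI against 21.9 and 16.5 CPM without one.

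Stimulated cells held less Cxcr6 than resting ones, and in CD8+ cells the drop was deeper in WT than in SDHA-KO. Unstimulated CD8+ cells held 77.9 and 75.3 CPM in WT against 59.6 and 49.1 CPM in SDHA-KO, and with stimulation Cxcr6 fell by 4.47 on the log2 scale in WT (SE 0.15, edgeR adjusted p = 8.15e-10) and by 2.39 in SDHA-KO (SE 0.14, edgeR adjusted p = 5.64e-08). The difference between those changes was 2.08 (SE 0.21, edgeR adjusted p = 0.000154), and without Trdc cells 2.90, with a fall of 1.58 in SDHA-KO. In CD4+ cells it fell by 1.53 in WT (SE 0.33, edgeR adjusted p = 0.00177) and by 1.14 in SDHA-KO (SE 0.24, edgeR adjusted p = 0.00139), and a difference between those changes was not detected (0.39, edgeR adjusted p = 0.533), nor was it without Trdc cells (0.88, adjusted p = 0.212), but with the matching coreceptor transcripts as well it was 2.17 (adjusted p = 0.0145). The WT CD4+ call was lost without unstimulated WT library 2 (-1.13, adjusted p = 0.059), in which a single cell held 28 of the 73 Cxcr6 UMIs of that class.

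In unstimulated CD4+ cells Cxcr6 was at 6.89 and 10.9 CPM in WT against 30.4 and 20.6 CPM in SDHA-KO (1.5, SE 0.29, edgeR adjusted p = 0.0385), a call that was lost without any 1 of the 4 unstimulated libraries (adjusted p of 0.0505 to 0.272) or either stimulated WT library (adjusted p = 0.0528 and 0.0579). In cells without a Trdc UMI the change was 0.77 (adjusted p = 0.299), and 45.7% and 40.8% of the Cxcr6 UMIs of unstimulated SDHA-KO CD4+ cells lay in the 79 and 100 cells that held one. In unstimulated CD8+ cells the change was -0.49 (SE 0.14, edgeR adjusted p = 0.126), and -0.63 (adjusted p = 0.0468) without Trdc cells. The joined kinds of cell separated these changes. In CD4+ Tem cells Cxcr6 was at 48.4 and 87.1 CPM in WT against 283.7 and 196.0 CPM in SDHA-KO (1.77, SE 0.20, edgeR adjusted p = 1.22e-07). The share of these cells with a Cxcr6 UMI, as counted and not matched for depth, was 16.3% and 22.8% against 67.2% and 56.0%. In CD8+ naive cells Cxcr6 was lower in SDHA-KO, at 48.0 and 51.1 CPM against 82.4 and 82.2 CPM (-0.73, SE 0.13, edgeR adjusted p = 0.000311). The background was 7.83% of genes in CD4+ Tem and 5.02% in CD8+ naive cells, and both calls held in all 8 alternatives.

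Cells with Trdc stood beside the CD4+ Tem result: they were 46.3% and 41.8% of SDHA-KO and 1.16% and 0% of WT CD4+ Tem cells, and without them the rise was 1.94. Sdha in the same Tem cells was at 76.1 and 92.3 CPM in WT against 68.9 and 73.8 CPM in SDHA-KO, a smaller gap than the 107.6 and 106.7 against 48.8 and 46.6 CPM of CD4+ naive cells. The part of either in the Cxcr6 level was not tested beyond the value without Trdc cells. In unstimulated WT the order of levels was CD8+ naive (82.3 ± 0.17 CPM, SD, n = 2), CD4+ Tem (67.7 ± 27.4) and CD8+ Tcm (67.5 ± 15.3), which did not differ beyond their spread, then CD4+ naive (2.01 ± 0.14) and Treg cells (no UMI in 92 and 75 cells). CD4+ naive cells, which as counted had a Cxcr6 UMI in 0.927% and 1.25% of WT and 1.54% and 0.440% of SDHA-KO cells, set the background for this receptor.

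In stimulated CD4+ cells most Cxcr6 and Ccr2 transcripts lay in 1 small numbered subset, Tem7, which was picked out after its values were seen. Tem7 held 33 and 30 cells in the WT libraries, 3.84% and 3.10% of CD4+ cells, and 95 and 101 cells in the SDHA-KO libraries, 8.36% and 7.87%. It held 74 of 93 and 62 of 87 Cxcr6 UMIs in WT and 240 of 439 and 218 of 329 in SDHA-KO, with 73 of the last 218 in a single cell. Within Tem7 the levels were close, at 147 and 216 plain CPM (without TMM factors) in WT and 154 and 149 plain CPM in SDHA-KO. Outside Tem7 stimulated CD4+ cells held 0.767 and 0.868 plain CPM of Cxcr6 in WT and 7.48 and 3.402 plain CPM in SDHA-KO, and the tested change there was 2.67 (edgeR adjusted p = 0.000413) against 1.89 with Tem7. The rise was also called in the numbered subsets Tem1 (0.75 and 0.42 against 4.72 and 2.32 TMM-scaled CPM, 2.66), Tem2 (0.34 and 0.40 against 2.32 and 4.29, 3.12, with 24% of genes called) and Tem3 (1.26 and 0.65 against 10.97 and 3.64, 2.80, with 23%). These calls too were lost when single libraries were left out: Tem1 without WT library 2 (adjusted p = 0.117) or SDHA-KO library 1 (2.02, adjusted p = 0.176), Tem2 without either WT library (adjusted p = 0.0917 and 0.0662), and Tem3 without WT library 2 (adjusted p = 0.0828) or SDHA-KO library 1 (1.88, adjusted p = 0.141). Trdc cells were 9.09% and 10% of Tem7 in WT and 26.3% and 19.8% in SDHA-KO. In joined stimulated CD4+ Tem cells the change was 1.5 (edgeR adjusted p = 0.00566), in CD8+ Tem cells 2.04 (edgeR adjusted p = 0.00262, 4.08 and 2.22 against 14.3 and 12.02 CPM), and in CD8+ Tcm cells 0.47, which did not pass (edgeR adjusted p = 0.212).

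Ccr2, the CCL2 receptor, was rare in stimulated cells and nearly confined to memory cells in resting ones. In unstimulated CD4+ cells it was at 2.72 and 6.29 CPM in WT against 16.9 and 16.2 CPM in SDHA-KO (1.87, SE 0.34, edgeR adjusted p = 0.0288), a call lost without any 1 unstimulated library (log2 fold changes of 1.41 to 2.61, adjusted p of 0.0753 to 0.189) and in cells without a Trdc UMI (1.38, adjusted p = 0.192, and 1.97, adjusted p = 0.199, with the matching coreceptor transcripts as well). Within CD4+ Tem cells it was at 22.0 and 48.4 CPM in WT against 169.1 and 162.6 CPM in SDHA-KO (2.19, SE 0.23, edgeR adjusted p = 2.64e-08), and at 2.61 without Trdc cells. The share of CD4+ Tem cells with a Ccr2 UMI, as counted and not matched for depth, was 6.98% and 15.2% in WT and 62.7% and 46.2% in SDHA-KO, against 0.132%, 0.125%, 0% and 0% in CD4+ naive cells. Leaving out unstimulated WT library 2 moved the log2 fold change to 2.87. As counted, Cxcr3 in the same Tem cells was seen in 59.3% and 58.2% of WT and 61.2% and 63.7% of SDHA-KO cells.

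Ccr2 and Cxcr6 transcripts were often in the same resting CD4+ cells. After each cell was thinned to 3000 UMIs, 44 and 43 unstimulated SDHA-KO CD4+ cells held a Ccr2 UMI, and 81.8% and 79.1% of them also held Cxcr6, against 2.52% and 1.81% of the other cells. In WT only 7 and 16 cells held Ccr2, of which 42.9% and 50% held Cxcr6. Cxcr3 was found in 63.6% and 60.5% of the SDHA-KO cells with Ccr2. In unstimulated CD8+ cells Ccr2 was at 5.71 and 4.23 CPM in WT against 8.39 and 2.07 CPM in SDHA-KO, with overlapping groups (0.08, SE 0.57, edgeR adjusted p = 1), and CD8+ Tcm cells held 95% and 94.7% of the Ccr2 UMIs in WT, and 28 of 28 and 5 of 7 in SDHA-KO.

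After stimulation Ccr2 fell to 0.62 and 0.32 CPM in WT against 2.50 and 1.57 CPM in SDHA-KO CD4+ cells, and the genotypes differed by 2.10 (SE 0.41, edgeR adjusted p = 0.00199), a call lost with limma (adjusted p = 0.160) and after thinning to the smallest library (adjusted p = 0.0648). Trdc cells held 49.4% and 79.3% of the SDHA-KO UMIs, and without them the levels were 0.15 and 0.33 CPM in WT against 1.42 and 0.36 CPM in SDHA-KO, and the change of 1.79 did not pass (edgeR adjusted p = 0.0565). With the matching coreceptor transcripts as well 22 and 1 UMIs in SDHA-KO stood against 0 and 1 in WT. All 17 and 10 Ccr2 UMIs of the WT libraries were in Tem7, as were 50 of 77 and 57 of 58 of the SDHA-KO libraries. Within Tem7 the levels were 33.8 and 34.8 plain CPM in WT against 32.0 and 39.1 plain CPM in SDHA-KO. Outside it 27 UMIs of SDHA-KO library 1 and 1 UMI of library 2 stood against 0 in both WT libraries. In stimulated CD8+ cells Ccr2 was at 0.12 and 0.23 CPM in WT against 2.86 and 1.73 CPM in SDHA-KO (3.63, SE 0.64, edgeR adjusted p = 0.000685), and 86.9% and 85.7% of the SDHA-KO UMIs were in cells with Trdc. Without Trdc cells, where 8 and 4 UMIs in SDHA-KO stood against 3 and 6 in WT, the change was 2.01 (edgeR adjusted p = 0.0334), and with the matching coreceptor transcripts as well it was 1.74 and did not pass (adjusted p = 0.0804). The change between the states differed in CD8+ cells (3.55, SE 0.87, edgeR adjusted p = 0.0132), a call lost without unstimulated WT library 1 (adjusted p = 0.0697) or stimulated WT library 1 (adjusted p = 0.0615) and in cells without Trdc that had the matching coreceptor transcripts (2.63, adjusted p = 0.0642, against 2.96 and 0.0336 without Trdc cells alone), and 4.88 and 2.85 without unstimulated SDHA-KO library 1 or 2. Stimulation lowered Ccr2 in WT cells by 3.27 in CD4+ (SE 0.46, edgeR adjusted p = 6.65e-05) and by 4.71 in CD8+ cells (SE 0.68, edgeR adjusted p = 8.95e-05), and in SDHA-KO CD4+ cells by 3.03 (SE 0.31, edgeR adjusted p = 4.79e-06). In SDHA-KO CD8+ cells the change of -1.17 (SE 0.54) did not pass (edgeR adjusted p = 0.0746), and was -1.85 (adjusted p = 0.00968) without unstimulated SDHA-KO library 2. In WT CD4+ cells the change was -2.51 without unstimulated WT library 2 and -4.19 without Trdc cells.

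**Figure D3:**
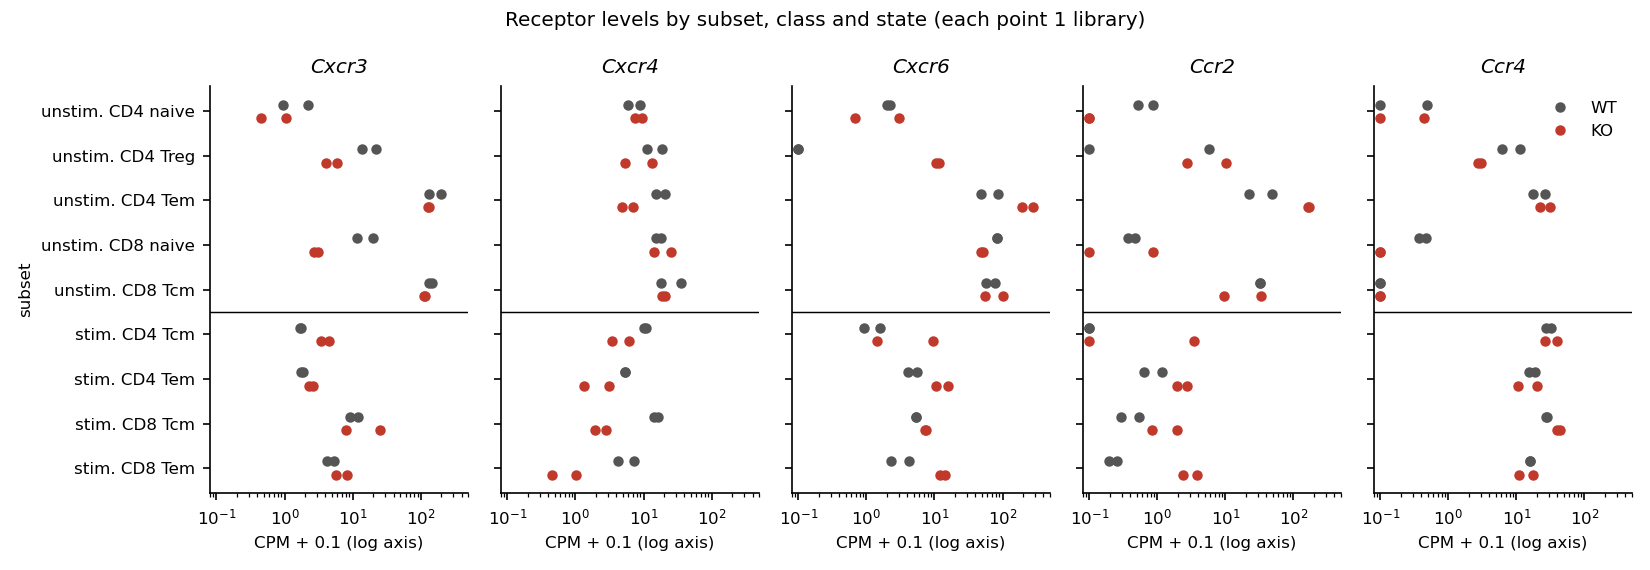
TMM-scaled CPM + 0.1 of each receptor on a log axis by kind of cell and group, each point 1 library. Unstimulated SDHA-KO CD4+ Tem cells held the highest Ccr2 and Cxcr6 levels, above those of WT, and Ccr4 was near the lower edge in unstimulated CD8+ cells.

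Cxcr3, the receptor for interferon-induced chemokines, showed opposite tendencies in the 2 states in CD4+ cells. Unstimulated CD4+ cells held 24.0 and 17.7 CPM in WT against 13.6 and 13.5 CPM in SDHA-KO, a change of -0.62 that did not pass (SE 0.17, edgeR adjusted p = 0.121). Stimulated CD4+ cells held 1.53 and 1.46 CPM in WT against 2.54 and 2.14 CPM in SDHA-KO (0.64, SE 0.21, edgeR adjusted p = 0.0299). That call was lost without stimulated WT library 1 or 2 and without stimulated SDHA-KO library 1. It was also lost with DESeq2 (adjusted p = 0.0761), with limma and after thinning to the smallest library. In cells without Trdc that had the matching coreceptor transcripts it was lost too (0.40, edgeR adjusted p = 0.310, against 0.65 and 0.0310 without Trdc cells alone). The difference between the states was 1.26 (SE 0.27, edgeR adjusted p = 0.00813), and 2.30 without Trdc cells. In CD8+ cells the levels overlapped in both states, at 31.7 and 34.5 against 31.8 and 20.4 CPM before stimulation and 7.41 and 5.25 against 5.31 and 10.1 CPM after it. The stimulated CD8+ change passed only without stimulated SDHA-KO library 1 among the libraries left out (0.67, edgeR adjusted p = 0.0309), as did the difference between the states (1.02, edgeR adjusted p = 0.0323).

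The unstimulated Cxcr3 level split by Trdc. In unstimulated SDHA-KO CD8+ cells it was at 108 and 66.7 plain CPM in the 64 and 54 cells with a Trdc UMI and at 6.70 and 9.68 plain CPM in the others, where WT cells without Trdc held 26.3 and 28.1 plain CPM. Trdc cells held 82.1% and 56.5% of the Cxcr3 UMIs of those SDHA-KO cells, and 55.2% and 54.5% in unstimulated SDHA-KO CD4+ cells. In cells without a Trdc UMI, Cxcr3 in unstimulated SDHA-KO changed by -1.65 on the log2 scale in CD4+ (edgeR adjusted p = 0.00251) and by -1.83 in CD8+ cells (edgeR adjusted p = 0.0110), and with the matching coreceptor transcripts as well by -1.97 and -1.92. TMM-scaled levels without Trdc cells were 24.4 and 18.1 in WT against 6.73 and 6.74 CPM in SDHA-KO CD4+, and 31.6 and 33.9 against 7.52 and 10.7 CPM in CD8+ cells, so the groups did not overlap. In CD8+ cells without Trdc the difference between the states was 1.59 (edgeR adjusted p = 0.0211). In joined CD8+ naive cells the fall was called in all cells, from 11.6 and 19.6 CPM in WT to 2.57 and 3.01 CPM in SDHA-KO (-2.50, SE 0.38, edgeR adjusted p = 5.18e-05), with Trdc in 3.19% and 2.39% of WT and 5.86% and 6.91% of SDHA-KO cells, and was -3.03 without them.

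**Figure D4:**
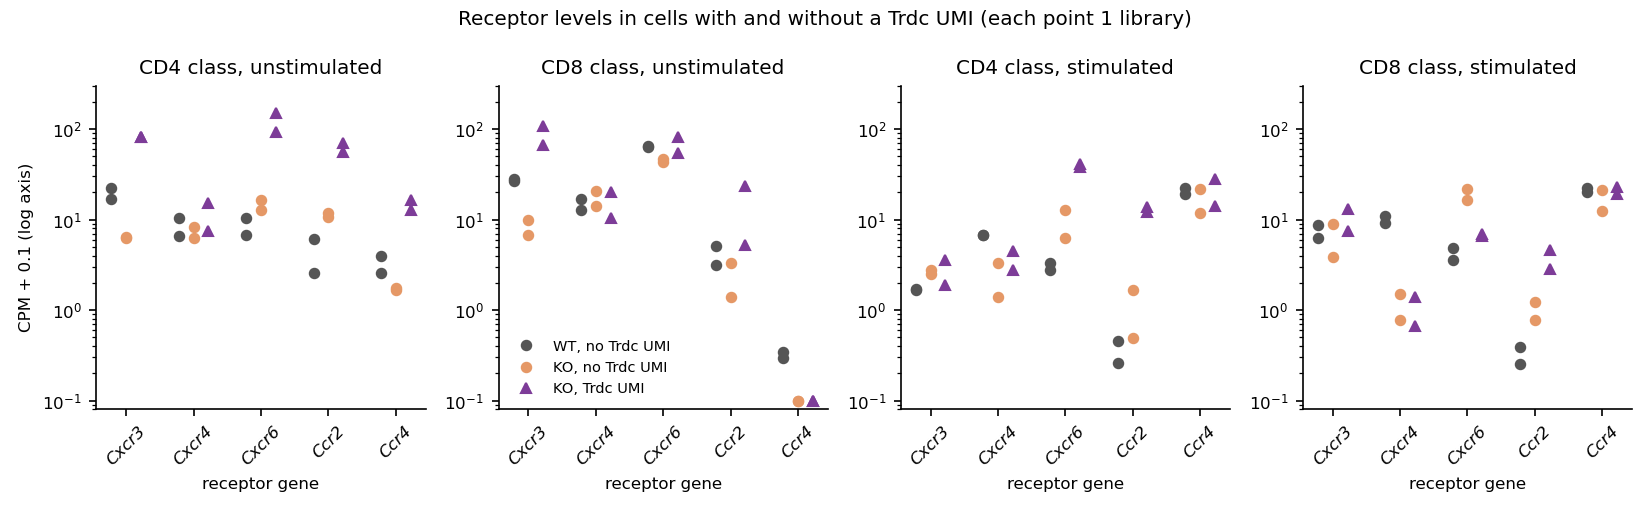
Plain CPM + 0.1 of each receptor on a log axis in WT cells without a Trdc UMI, SDHA-KO cells without one and SDHA-KO cells with one, by class and state, each point 1 library. In unstimulated CD8+ cells Cxcr3 was at 26.3 and 28.1 in WT without Trdc, 6.70 and 9.68 in SDHA-KO without it and 108 and 66.7 in SDHA-KO with it.

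Resting Cxcr3 was highest in memory cells. In unstimulated WT it was at 166 ± 49.1 CPM (SD, n = 2) in CD4+ Tem and 139.97 ± 7.69 CPM in CD8+ Tcm cells, which did not differ beyond their spread, then at 18.0 ± 5.93 in Treg, 15.6 ± 5.65 in CD8+ naive and 1.48 ± 0.89 in CD4+ naive cells. CD4+ Tem cells held 91.3% and 80.5% of the Cxcr3 UMIs of CD4+ cells in WT and 91.2% and 95.8% in SDHA-KO. In these Tem cells the level was 200.8 and 131.4 CPM in WT against 129.4 and 131.0 CPM in SDHA-KO. Both SDHA-KO values lay just below WT library 2, and the change of -0.37 did not pass (edgeR adjusted p = 0.244) except without WT library 2 (-0.66, adjusted p = 0.0428). In CD8+ Tcm cells 134.5 and 145.4 CPM stood against 117.3 and 113.3 CPM, where Trdc was found in 9.09% and 12.96% of WT and 71.0% and 64.7% of SDHA-KO cells. Stimulation lowered Cxcr3 by 3.79 in WT CD4+ (SE 0.20, edgeR adjusted p = 1.81e-08), by 2.54 in SDHA-KO CD4+ (SE 0.18, edgeR adjusted p = 2.54e-07), by 2.39 in WT CD8+ (SE 0.28, edgeR adjusted p = 1.83e-05) and by 1.78 in SDHA-KO CD8+ cells (SE 0.31, edgeR adjusted p = 0.000322). The last was not called without Trdc cells (-0.78, adjusted p = 0.0916), and the change in SDHA-KO CD4+ cells was then -1.54. Among the numbered stimulated subsets Cxcr3 was higher in SDHA-KO in CD4+ Tem3 (0.72 and 0.98 against 5.13 and 3.98 CPM, 2.32) and CD8+ Tem2 (1.02). The CD4+ Tem3 call was lost without any 1 of the 4 libraries (adjusted p of 0.0569 to 0.0857). The CD8+ Tem2 call was lost without either WT library (adjusted p = 0.133 and 0.188), SDHA-KO library 2 (0.66, adjusted p = 0.209) or Trdc cells (adjusted p = 0.0760) and with a replicate block (adjusted p = 0.0683).

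Ccr4, the receptor for CCL17 and CCL22, rose with stimulation in both classes and both genotypes. In WT CD4+ cells it went from 2.56 and 4.04 CPM to 17.7 and 20.8 CPM (2.53, SE 0.36, edgeR adjusted p = 6.94e-05) and in SDHA-KO CD4+ cells from 3.15 and 2.64 CPM to 20.6 and 10.9 CPM (2.44, SE 0.33, edgeR adjusted p = 4.95e-05), or 3.13 without Trdc cells. In CD8+ cells the rise began near zero. WT CD8+ cells held 2 Ccr4 UMIs in 1019 unstimulated and 918 UMIs in stimulated cells, a ratio of levels of 101.6 with a 95% counting interval of 28.0 to 840.3. SDHA-KO CD8+ cells held none in 680 unstimulated cells, which allows a share of cells with a UMI of up to 0.441%, and 664 UMIs after stimulation, so the level was at least 48.4-fold higher, with the floor set at 3 UMIs over the group. These intervals and floors cover counting error only.

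SDHA loss had no detectable effect on Ccr4 in stimulated cells of either class. In CD8+ cells 18.9 and 17.6 CPM in WT stood against 19.9 and 14.8 CPM in SDHA-KO (-0.06, 95% interval -0.33 to 0.21, edgeR adjusted p = 0.749), and in CD4+ cells the change was -0.30 (95% interval -0.75 to 0.16, edgeR adjusted p = 0.324). The CD4+ value depended on stimulated SDHA-KO library 1, without which it was -0.80 (adjusted p = 0.00158). In joined CD8+ Tcm cells Ccr4 was at 28.4 and 27.4 CPM in WT against 39.5 and 43.4 CPM in SDHA-KO (0.54, edgeR adjusted p = 0.0130), where Trdc was found in 2.93% and 4.38% of WT and 69.3% and 66.5% of SDHA-KO cells. That call was lost without either WT library (0.57 and 0.50, adjusted p = 0.106 and 0.145) and without Trdc cells (0.13, adjusted p = 0.639), and in cells under 10% mitochondrial UMIs the change was -0.26 (adjusted p = 0.641), opposite in sign. Stimulated Tcm cells held more Ccr4 than Tem cells in WT, at 29.8 ± 3.20 CPM (SD, n = 2) in CD4+ Tcm and 27.9 ± 0.75 in CD8+ Tcm against 17.1 ± 2.23 in CD4+ Tem and 15.7 ± 0.09 in CD8+ Tem cells. Stimulated WT CD4+ cells under 10% mitochondrial UMIs held 14.4 and 17.0 plain CPM of Ccr4, against 33.3 and 38.3 in the others. In CD8+ cells these values were 15.1 and 14.5 against 33.1 and 31.6 plain CPM. The part of the mitochondrial share in the Tcm and Tem levels was not tested. Before stimulation Ccr4 was found in CD4+ Tem (21.9 ± 6.14 CPM in WT) and Treg cells (8.63 ± 3.51), and at no UMI in CD8+ Tcm cells. In Treg cells no receptor could be tested for the genotype at these counts.

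The share of cells with a receptor UMI moved with depth. The shares given above for CD4+ Tem and naive cells are as counted. Within the classes shares were compared after thinning each cell to 3000 UMIs, which left out at most 20 cells of a library. A Cxcr4 UMI was then found in 4.32% and 5.04% of stimulated WT and 0.617% and 0.392% of stimulated SDHA-KO CD8+ cells, against 16.8% and 22.7% and 4.31% and 2.27% as counted. Cxcr6 was found in 1.66% and 1.38% against 3.73% and 3.50% of stimulated CD8+ cells, and in 1.09% and 1.23% against 3.79% and 2.03% of stimulated CD4+ cells. Ccr4 was found in 7.90% and 7.22% against 8.27% and 6.42% of stimulated CD8+ cells. The SDHA-KO and WT shares did not overlap for 3 of 5 receptors in stimulated cells of either class, where 77.2% of tested genes in CD4+ and 76.1% in CD8+ cells did not overlap, and for 4 of 5 in unstimulated CD4+ and 2 of 5 in unstimulated CD8+ cells, where 46.5% and 46.6% did not. The smallest p that an exact permutation test of 2 against 2 libraries allows is 0.33, and the shares were not tested.

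Whether the receptors differed between CD4+ and CD8+ cells was tested on cells with only the matching coreceptor transcripts and no Trdc UMI, whatever class the authors had given them, with the library as a block. In unstimulated WT 3 of 5 receptors were called, with 13.3% of genes called. Cxcr6 was lower in CD4+ cells, at 7.79 and 12.4 against 80.4 and 74.0 CPM (-2.92, edgeR adjusted p = 9.86e-08), and so was Cxcr4, at 10.6 and 6.06 against 20.9 and 15.6 CPM (-1.15, edgeR adjusted p = 0.00492), a call lost without unstimulated WT library 2 (-0.98, adjusted p = 0.138). Ccr4 was higher, with 28 UMIs against 2 and a ratio of levels of 16.1 (95% counting interval 4.07 to 139.9). Unstimulated SDHA-KO cells showed the same 3 differences against a background of 14%: Cxcr6 at -1.78 (edgeR adjusted p = 1.21e-05), Cxcr4 at -1.29 (edgeR adjusted p = 0.00152, lost without SDHA-KO library 1 at -0.87 and adjusted p = 0.141), and Ccr4 with 24 UMIs in CD4+ and none in CD8+ cells, at least 2.70-fold higher. The Ccr4 call there was lost without either unstimulated SDHA-KO library.

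After stimulation the classes differed in Cxcr3 and Cxcr6 in WT, both lower in CD4+ cells, with 21.7% of genes called. Cxcr3 was at 1.92 and 1.73 CPM in CD4+ against 6.67 and 4.66 CPM in CD8+ cells (-1.61, edgeR adjusted p = 0.000444), and Cxcr6 at 0.99 and 1.79 against 3.94 and 2.65 CPM (-1.20, edgeR adjusted p = 0.0104), lost without WT library 1 (-0.56, adjusted p = 0.418) and -1.97 without WT library 2. In stimulated SDHA-KO cells 3 of 5 were called, with 26.9% of genes called: Cxcr6 at -0.92 (edgeR adjusted p = 0.00170), Cxcr3 at -0.94 (edgeR adjusted p = 0.0463) and Cxcr4 at 1.28 (edgeR adjusted p = 0.0249). Cxcr4 was thus higher in CD4+ cells there, at 3.10 and 1.40 against 0.91 and 0.94 CPM, whereas WT cells had 6.02 and 5.75 against 7.53 and 9.25 CPM (-0.51, edgeR adjusted p = 0.0540). The genotype effect on Cxcr4 differed between the classes by 1.79 (edgeR adjusted p = 0.0142), where 10.3% of genes differed, and by 1.08 (adjusted p = 0.414) without stimulated SDHA-KO library 1. The Cxcr4 difference within SDHA-KO cells was also lost without that library (0.57, adjusted p = 0.628), and the Cxcr3 one rested on SDHA-KO library 2, without which it was 0.007, was -1.62 without library 1, and was lost without either unstimulated SDHA-KO library (adjusted p = 0.0517 and 0.0515). In unstimulated cells 0 of 5 receptors had a genotype effect that differed between the classes, where 0.182% of genes did, 2 of 5 (Cxcr6 and Ccr2) had an unadjusted p under 0.05, and DESeq2 also called 0 of 5.

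Genes around the receptors were read from lists of related genes. Of 24 other chemokine and chemoattractant receptors 14 were tested in stimulated CD4+ cells, and 4 rose and 2 fell with SDHA loss, with a median log2 fold change of 0.26 against -0.00094 for all genes. Of all tested genes 22.7% rose and 20.5% fell there. Ccr8, a receptor of Th2 and regulatory T cells, rose from 11.3 ± 2.75 to 22.8 ± 7.65 CPM (1.01, edgeR adjusted p = 0.00532), and Gpr183, an oxysterol receptor, from 97.1 to 130.4 CPM (0.42, edgeR adjusted p = 0.0268). In stimulated CD8+ cells 13 were tested, and 1 rose and 2 fell (median -0.16, against -0.0096 for all genes). Of all tested genes 26.8% rose and 23.5% fell there. Ccr7, the lymph node homing receptor, which the authors also used to name the subsets, fell from 235.5 to 144.2 CPM (-0.71). Ccr9, named for its place near Cxcr6, was not called in stimulated CD4+ (-0.61, edgeR adjusted p = 0.167) or CD8+ cells (-0.28, edgeR adjusted p = 0.527). Ccr1, another neighbor, was tested only in all T cells together and was not called after stimulation (1.58, edgeR adjusted p = 0.0710). Before stimulation Cxcr5, the B cell follicle receptor, named here after its values were seen, was the only one called in CD4+ cells (-1.05, from 14.999 ± 0.81 to 7.23 ± 0.71 CPM) and 1 of 2 in CD8+ cells (-1.43, from 15.5 ± 3.33 to 5.80 ± 0.16 CPM), beside Gpr183 (-0.93). The shares of all tested genes called before stimulation were 1.1% in CD4+ and 0.947% in CD8+ cells.

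Of the genes that carry or end chemokine receptor signals, 32 were tested in stimulated cells: 16 rose and 4 fell in CD4+ cells (median 0.25) and 15 rose and 4 fell in CD8+ cells (median 0.18). For this and the next 2 lists the background in stimulated CD4+ cells was 22.7% of all tested genes higher and 20.5% lower. In CD8+ cells it was 26.8% higher and 23.5% lower. Arrb1, a β-arrestin that uncouples and internalizes receptors, fell by 2.20 in CD4+ cells, from 29.4 to 6.46 CPM, and by 2.74 in CD8+ cells. Rgs1, a GTPase-activating protein that damps chemokine responses, fell by 1.05 in CD4+ cells (192.3 to 92.9 CPM), whereas Rgs10 rose by 0.76 (145.2 to 246.5 CPM) and Grk2, a kinase that desensitizes receptors, by 0.69 (44.6 to 72.0 CPM). In CD8+ cells Rgs16 (1.05) and Rgs2 (0.93) rose and Rhoh, a hematopoietic GTPase, fell (-0.56). Of 25 transcription factors and other regulators known to act on the receptors, all were tested in CD4+ cells, where 13 rose and 4 fell (median 0.43), and 24 in CD8+ cells, where 8 rose and 5 fell (median 0.05). Ikzf2 (Helios) rose by 1.83 in CD4+ cells, from 22.8 to 80.8 CPM, and Klf2, which keeps T cells recirculating, by 1.52, from 13.5 to 38.8 CPM. In CD8+ cells Batf (1.43) and the T-box factor Eomes (1.05) rose. The glucocorticoid target Tsc22d3 fell in both classes (-1.09 and -1.57), as did Rora (-0.84 and -1.49). Of 11 genes for chemokine ligands of the 5 receptors 6 were in the table, and 1 was tested and rose in CD4+ (Cxcl10, 1.45) and 1 of 2 rose in CD8+ cells (Ccl17, 5.93). Both had a mean under 5 CPM in stimulated cells of their class, so the sizes of these changes are uncertain. They are named although they miss the level set for naming list genes. Neither was tested again without Trdc cells. These lists were not tested as sets.

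Genes whose level followed a receptor most closely over the 93 sums of a numbered subset and library are given as a description, since sums share libraries and depth. Ccr4 had the closest, with Pearson's r of 0.948 for Rnf19b, 0.938 for Lamc1 and 0.937 for Ptpn3, and 34 of 10878 genes above 0.9. Ccr2 went with S100a4 (0.845), S100a6 (0.812) and Il18rap (0.770), Cxcr3 with Il18rap (0.801), Abcb1a (0.774) and Ccl5 (0.772), and Cxcr6 with Myo1f (0.767), B3gat3 (0.763) and Tpst2 (0.725). Cxcr4 had the weakest, with Dpp4 (0.757) and 4833420G17Rik (0.753). After each library's mean was subtracted, which removes the difference between the states, Cxcr3 went with Hip1 (0.860) and Il18rap (0.822), Cxcr6 with Nkg7 (0.853), Sytl3 (0.828) and Myo1f (0.779), Ccr2 with S100a6 (0.849), S100a4 (0.842) and Gng2 (0.821), Ccr4 with Lamc1 (0.858), Ptpn13 (0.844) and Rnf19b (0.827), and Cxcr4 with Samd9l (0.725), Neurl3 (0.719) and Ms4a4b (0.683).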

How the data were processed

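Splenic T cells of 8 libraries, 2 in each of 4 groups, were profiled with 10x 3′ single-cell RNA-seq. The authors demultiplexed reads with bcl2fastq, counted UMIs with Cell Ranger (genome mm10 in the submitters' processing notes), merged the cells with Seurat, removed cells above a limit of detected genes and clusters without Cd3 transcripts, and deposited the UMI counts of each cell without normalization. A second deposited table gives for each cell UMI and gene counts, the percent of mitochondrial UMIs, the log10 ratio of Cd4 to Cd8a, the CD4+ or CD8+ class and the authors' subset names. The authors gave the class to clusters, by log ratios of Cd4 to Cd8a, and not cell by cell. The subset names rest on marker genes that include Foxp3, Tcf7, Il7r, Ccr7, Cd44 and Itga4. The totals and percents of that table matched the counts in every cell. How doublets were treated is not given in the sources used here, and no caller was run. Cell barcodes were shared by 2 libraries in 23 cases, at most 3 for a pair.

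UMIs were summed per library and class or subset, and tested with edgeR 4.0.16 in R 4.3.3 (filterByExpr with a count minimum of 10 and total minimum of 15, TMM factors, glmQLFit and glmQLFTest, Benjamini-Hochberg adjusted p under 0.05). All T cells and each class had all groups in 1 fit of 8 libraries, with 4 residual degrees of freedom. Each subset and joined kind was fitted on the 4 libraries of its state alone, with 2 residual degrees of freedom. SEs are the log2 fold change divided by the root of F, and 95% intervals use 1.96 SE. The p-values of all tests across genes are edgeR's unless another tool is named. Subsets were tested alone where every library had at least 50 cells, and numbered subsets of 1 kind were also joined, a choice made after the cell labels had been seen. CD4+ and CD8+ cells were compared on cells with only the matching coreceptor UMIs (Cd4, or Cd8a or Cd8b1) and no Trdc UMI, whatever the authors' class. Leaving out the Trdc cells of a class was an alternative added after the data were seen, and a planned one also required only the matching coreceptor UMIs. Shares of cells of a class with a receptor UMI were compared after thinning to 3000 UMIs. Shares within subsets and shares of cells with Trdc are as counted. DESeq2 1.42.0 and limma 3.58.1 (on the mean over cells of log2 scaled values with a pseudocount of 1) were alternatives. The scripts were tested on simulated data. The 5 receptors were named in every comparison, as were, from each list, up to 2 called genes with the highest and 2 with the lowest fold change in stimulated cells among those with at least 5 CPM, and the 3 genes of highest correlation, of which some are not reported here. The receptors and lists were chosen with earlier results of these data known. Promoters came from RefSeq GRCm38.p6.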

Additional observations from a re-analysis of the deposited data

Results flagged for a closer look

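The effect of SDHA loss differed between the unstimulated and stimulated states by edgeR's test of the difference itself for several receptors (log2 fold change in stimulated minus that in unstimulated cells). In all T cells summed together it was 0.79 for Cxcr3, -1.89 for Cxcr4 and 1.87 for Cxcr6. In CD4+ cells it was 1.26 for Cxcr3 and -1.39 for Cxcr4, and in CD8+ cells -3.30 for Cxcr4, 2.08 for Cxcr6 and 3.55 for Ccr2. Between the classes the effect on Cxcr4 in stimulated cells differed by 1.79, being less negative in CD4+ than in CD8+ cells. Leaving out stimulated SDHA-KO library 1 took the last value to 1.08, below the threshold, and the Cxcr4 difference between the states in all T cells to -2.53.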

How the results depend on the processing

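Of the recomputed counts of receptors called, 365 stayed within 1.5 times the reported count and 62 did not. Of the recomputed log2 fold changes 10 changed sign with a call on either side. In the words used here, unstimulated and stimulated name the SDHA-KO against WT comparison in that state and difference names the change of that effect between the states. In all T cells the unstimulated count of 1 became 0 at a tested fold of at least 1.5 and after thinning to the smallest library, and 2 with only the 4 libraries compared or limma, and the difference (3) became 1 at a fold of at least 1.5. In CD4+ cells the unstimulated count of 2 became 0 at a fold of at least 1.5, after thinning or outside Tem7, and 1 under 10% mitochondrial UMIs or without Trdc, with or without the coreceptor rule. There the stimulated count of 4 became 2 with limma or thinning, and the difference (2) became 1 with DESeq2 size factors, no composition scaling, nuclear genes only, under 10% mitochondrial UMIs or without Trdc and no coreceptor rule, and 0 at a fold of at least 1.5 or after thinning. In CD8+ cells the unstimulated count of 0 became 1 with only the 4 libraries compared or limma and 2 without Trdc, with or without the coreceptor rule, and the count with stimulation in WT (5) became 3 with limma. Between the classes the authors' own classes gave 5 for unstimulated SDHA-KO (reported 3) and 1 for the unstimulated difference of genotype effects (reported 0), and DESeq2 gave 1 for stimulated SDHA-KO (reported 3) and 0 for the stimulated difference (reported 1), as did cells under 10% mitochondrial UMIs for the last. Over numbered subsets the 10 stimulated calls became 5 without Trdc. The count of receptors whose shares did not overlap in unstimulated CD8+ cells rose from 2 to 4 without Trdc. The cause was not tested for any of these.

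The values that changed sign came mostly from limma on mean log values: for stimulation in WT Cxcr4 was 0.038 in all, 0.036 in CD4+ and 0.025 in CD8+ cells, for stimulation in CD4+ cells Cxcr6 was 0.0016 in WT and 0.0015 in SDHA-KO, and for the difference Ccr2 was -0.026 in all and -0.038 in CD4+ cells. Ccr4 in stimulated CD8+ Tcm cells was -0.26 under 10% mitochondrial UMIs. Between the classes in stimulated SDHA-KO cells Cxcr3 ranged from -1.62 to 0.0070 with 1 library left out (-1.62 without SDHA-KO replicate 1, 0.0070 without replicate 2), and Cxcr6 was 0.094 with the authors' classes.

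With 1 library left out the counts ranged as follows. In all T cells they were 0 to 2 unstimulated, 3 to 4 stimulated and 2 to 3 for the difference, in CD4+ cells 0 to 2, 3 to 4 and 1 to 2, and in CD8+ cells 0 to 0, 3 to 4 and 2 to 4. Between the classes they were 1 to 3 in unstimulated WT, unstimulated SDHA-KO and stimulated WT, 2 to 3 in stimulated SDHA-KO, 0 to 1 for the unstimulated and 0 to 2 for the stimulated difference. Over numbered subsets they were 2 to 4 unstimulated and 0 to 10 stimulated, and over joined kinds of cell 4 to 5 and 5 to 11.

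Same-numbered libraries did not deviate together (every correlation at most 0.104), so the numbers were not taken as pairs. A replicate block took the 3 unstimulated calls over numbered subsets to 5 and the Cxcr4 change in unstimulated CD4+ Tem cells past the threshold (adjusted p = 0.0488 against 0.0523), and changed no other count by over 1.5 times. Receptors with few UMIs, Ccr2 after stimulation and Ccr4 before it, were limited by depth.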
